A study of Mus musculus with 15 samples.

Results

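Integrins are receptors made of an alpha and a beta chain that tie a cell to other cells and to the extracellular matrix. The 9 chains described here were chosen by gene symbol from 55487 genes in the deposited count table: Itgam, Itgb2, Itgal and Itga4, which are best known from white blood cells, and Itgb1, Itgav, Itgb5, Itga6 and Itga9, which many cell types express. Each symbol matched a single Ensembl identifier, and all 9 genes passed the filter on low counts, so none is left out below.

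Bulk RNA was measured in frozen forebrain of wild-type mice, in 15 libraries that form 5 groups of 3. The groups are PLX1X (titled as PLX 1x treated), PLX3X_CD0 (titled as PLX 3x treated), PLX3X_CD30 (titled only as PLX treated), IR-BMT and NT, the brains without treatment. No label explains the abbreviations, and none gives an age or a dose, so the groups are called by these names and the place of PLX3X_CD30 rests on its library names alone. Whether each library is a mouse of its own is not said either, and the p-values below then cover only how the libraries vary, which could be technical.

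Total counts ran from 19249641 to 54801136 per library, and 21780 genes were tested. Levels are counts scaled to a common library total with TMM factors (CPM), given for each library or as mean ± SD with n = 3, and a gene was called at an adjusted p under 0.05 in edgeR's quasi-likelihood test, adjusted by Benjamini-Hochberg across every gene tested. Of the untreated brains, NT replicate 1 had the lowest total and stood apart in a summed list of 5 thalamus genes, at 160.3% of the NT mean against 71.6% and 68.2% in the other NT libraries. Without that library the same members were called in 3 of the comparisons with NT, and 1 more (Itgb5) in IR-BMT against NT. In brain tissue as a whole, fewer cells of a type and less RNA per cell cannot be told apart.

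In textbook terms, Itgam (CD11b) and Itgal (CD11a) each pair with Itgb2 (CD18), and these pairs let microglia, other macrophages, neutrophils and lymphocytes bind ICAM proteins and, for Itgam, complement fragments. Itga4 pairs with Itgb1 to bind Vcam1 and fibronectin, a step in the entry of blood cells into the brain, and natalizumab blocks that pair in multiple sclerosis. Itgb1 is the common partner of many alpha chains. Itga6 with Itgb1 binds laminin of the vascular basement membrane, Itga9 with Itgb1 binds tenascin-C and osteopontin, and Itgav pairs with several beta chains, of which Itgb5 forms a vitronectin receptor that microglia carry together with other cells.

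In the GENCODE release 21 annotation of mm10, Itgam lies at chr7:128062640-128118491 and Itgal at chr7:127296260-127335138. Itgb2 lies at chr10:77530252-77565708, and Itga4 at chr2:79255426-79333123. The broadly expressed chains lie at chr8:128685654-128733200 for Itgb1, chr2:83724397-83806916 for Itgav, chr16:33829665-33949338 for Itgb5, chr2:71745616-71858416 for Itga6 and chr9:118606690-118901003 for Itga9. All 9 are on the plus strand, and the values below sum reads over each whole gene. The library kit does not mark strand, so reads from overlapping genes are uncertain: exons of Itga4 share 1124 bases with Cerkl, and those of Itgav share 634 bases with Gm13684, both on the opposite strand. Itgam shares 3450 of its 5024 exon bases with the readthrough gene Gm49368 on its own strand, to which at most 2 counts were assigned in any library. How reads in shared bases were counted is not given, so the level of Itgam may be understated.

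The 250 bases before the annotated start are shown for 3 chains whose levels set the main contrasts below: Itgam, which was lower than in NT in all 4 treated groups, Itga4, which was higher in all 4, and Itgb5, a broadly expressed chain that moved with Itgam. They are RefSeq sequences of GRCm38.p6, at chr7:128062390-128062639 for Itgam, chr2:79255176-79255425 for Itga4 and chr16:33829415-33829664 for Itgb5, all on the plus strand. Capitals mark GAGGAA, the core of many sites bound by the myeloid factor PU.1, and GGGCGG, the GC box, each on either strand, so that TTCCTC and CCGCCC are the same motifs read from the other side.
Itgam: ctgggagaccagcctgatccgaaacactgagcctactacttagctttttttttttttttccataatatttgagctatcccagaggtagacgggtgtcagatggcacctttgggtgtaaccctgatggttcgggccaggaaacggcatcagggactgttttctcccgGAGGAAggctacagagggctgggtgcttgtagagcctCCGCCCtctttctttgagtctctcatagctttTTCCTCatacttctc
Itga4: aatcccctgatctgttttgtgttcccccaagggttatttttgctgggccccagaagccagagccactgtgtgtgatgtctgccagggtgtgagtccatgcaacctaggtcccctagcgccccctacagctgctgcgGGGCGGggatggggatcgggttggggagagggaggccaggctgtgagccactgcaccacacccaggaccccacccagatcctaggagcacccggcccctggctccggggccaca
Itgb5: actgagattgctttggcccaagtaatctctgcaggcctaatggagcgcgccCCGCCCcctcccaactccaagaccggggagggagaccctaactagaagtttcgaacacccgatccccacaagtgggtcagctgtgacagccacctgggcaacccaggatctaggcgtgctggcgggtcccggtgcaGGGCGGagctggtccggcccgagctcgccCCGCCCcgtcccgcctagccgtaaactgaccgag

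The Itgam stretch holds 2 GAGGAA matches and 1 GGGCGG match, that of Itga4 holds 1 GGGCGG match, and that of Itgb5 holds 3, and the stretches of Itga4 and Itgb5 hold no GAGGAA. Among 32851 RefSeq promoters of this length, 23.3% hold GAGGAA and 32.7% hold GGGCGG on either strand, and the motifs do not overlap in the sequences shown. The promoters of Itgb1 and Itgav, not printed, hold 1 and 2 GAGGAA matches, so the motif was present in chains of both kinds. A match is a run of letters and not a shown binding site.

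Against NT, 5 of the 9 chains were called in PLX1X, 7 in PLX3X_CD0, 3 in PLX3X_CD30 and 5 in IR-BMT. Over all genes tested, 18.1% were called in PLX1X (9.97% higher and 8.12% lower), 21.7% in PLX3X_CD0 (12.2% higher and 9.53% lower), 6.57% in PLX3X_CD30 (4.74% higher and 1.84% lower) and 30.6% in IR-BMT (15.1% higher and 15.4% lower). The split over all genes moved with the setting: in PLX3X_CD30 it was 1106 higher and 928 lower without a filter on low counts and 208 and 151 with only the 6 libraries compared, in place of 1032 and 400, and in IR-BMT it was 2900 and 2104 with an offset for GC content and transcript length, in place of 3293 and 3365. Itgam and Itga4 were called against NT in every treated group and in opposite directions, Itgam lower and Itga4 higher. Itga9 and Itgal were called in none. The 3 libraries of a group all lay on 1 side of the NT libraries for 5 chains in PLX1X, 7 in PLX3X_CD0, 6 in PLX3X_CD30 and 6 in IR-BMT, as they did for 32.0%, 33.8%, 24.4% and 40.0% of all genes tested. These comparisons share the NT libraries, so their values are given side by side and are not independent of each other.

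**Figure D1:**
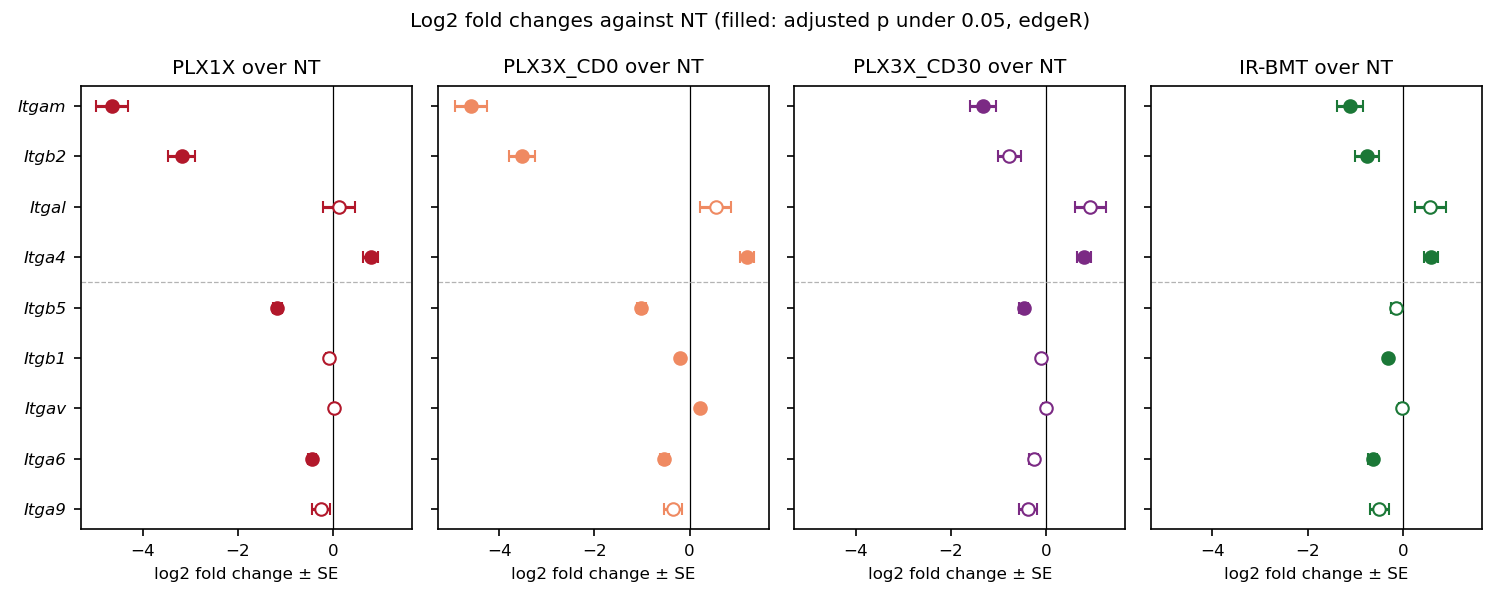
Log2 fold changes of the 9 chains over NT (x axis, ± SE) in each treated group, with leukocyte chains above the dashed line and broadly expressed chains below it; filled points passed an adjusted p of 0.05. Itgam lies farthest to the left in all 4 panels, at -4.64, -4.59, -1.32 and -1.11, and Itga4 lies to the right of 0 in each.

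Itgam, the alpha chain that marks microglia and other myeloid cells, fell to a few percent of its NT level in PLX1X and PLX3X_CD0 brains. It stood at 0.259, 0.288 and 0.0739 CPM in PLX1X libraries and at 0.162, 0.272 and 0.224 CPM in PLX3X_CD0 libraries. It stood at 2.64, 2.19 and 1.59 CPM in PLX3X_CD30 libraries, at 3.15, 2.01 and 2.31 CPM in IR-BMT libraries, and at 4.38, 5.37 and 6.19 CPM in NT libraries. The libraries thus formed 3 levels that did not overlap, with PLX1X and PLX3X_CD0 lowest, PLX3X_CD30 and IR-BMT between, and NT highest. The lowest PLX1X value, in replicate 3, rests on 3 counts, and the other 5 libraries of the lowest level hold 8 to 14 counts each, so the size of the fall is less certain than its direction. Itgam was 24.9-fold lower in PLX1X than in NT (log2 fold change -4.64 ± 0.34 SE, adjusted p = 4.08e-08, edgeR) and 24.0-fold lower in PLX3X_CD0 (-4.59 ± 0.33, adjusted p = 2.41e-08, edgeR). It was 2.50-fold lower in PLX3X_CD30 (-1.32 ± 0.27, adjusted p = 0.00645, edgeR) and 2.15-fold lower in IR-BMT (-1.11 ± 0.27, adjusted p = 0.00389, edgeR).

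Itgb2, the beta chain that Itgam and Itgal need to reach the cell surface, followed the same order. It stood at 0.593, 1.55 and 0.665 CPM in PLX1X libraries and at 0.608, 0.931 and 0.653 CPM in PLX3X_CD0 libraries. It stood at 5.48, 4.72 and 4.67 CPM in PLX3X_CD30 libraries, at 4.79, 5.68 and 4.59 CPM in IR-BMT libraries, and at 6.77, 8.37 and 10.0 CPM in NT libraries. Again no library of one level reached into the next, although PLX1X replicate 2 stood above the other libraries of its group. Itgb2 was 9.03-fold lower in PLX1X (log2 fold change -3.18 ± 0.28 SE, adjusted p = 6.04e-07, edgeR) and 11.5-fold lower in PLX3X_CD0 (-3.52 ± 0.28, adjusted p = 1.19e-07, edgeR) than in NT. The smaller differences were less secure. In PLX3X_CD30 the log2 fold change of -0.77 ± 0.25 did not pass (adjusted p = 0.0685 in edgeR, with a range of 0.00298 to 0.201 over 12 other settings), and DESeq2 called it at an adjusted p of 0.0156. In IR-BMT, -0.75 ± 0.25 passed at an adjusted p of 0.0271 in edgeR but no longer did without NT replicate 2 (0.0551), NT replicate 3 (0.106), IR-BMT replicate 1 (0.0806) or IR-BMT replicate 3 (0.101).

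**Figure D2:**
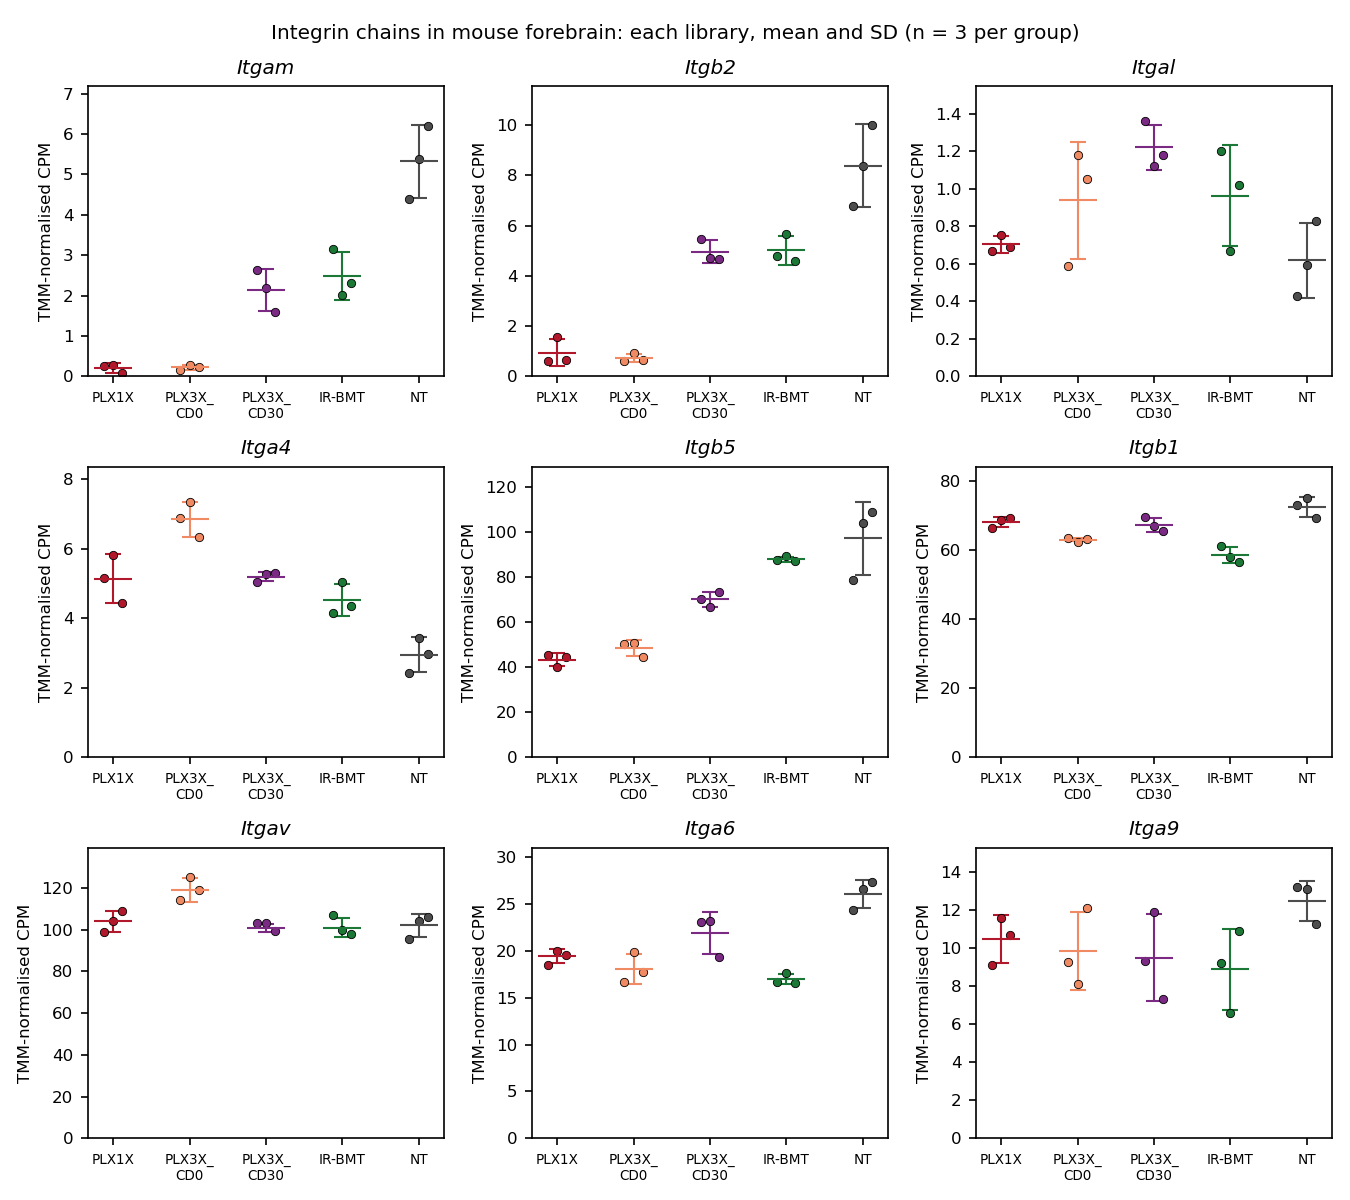
TMM-normalised CPM of each chain (y axis, linear from 0) in every library (points) with the mean and SD of the 3 libraries of a group. Itgam and Itgb2 show 3 separate levels, Itga4 is lowest in NT, and Itgb1 and Itgav vary little beside their level.

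The fall of Itgam and Itgb2 was set beside marker lists of the cells that carry them. The summed CPM of 9 genes shared by microglia and other macrophages (Csf1r, Cx3cr1, Aif1, C1qa, C1qb, C1qc, Ptprc, Spi1 and Tyrobp) was 6.49% ± 3.67 of the NT mean in PLX1X, 4.25% ± 2.50 in PLX3X_CD0, 42.3% ± 1.49 in PLX3X_CD30 and 44.2% ± 2.32 in IR-BMT. On the same scale Itgam was at 3.89% ± 2.19, 4.12% ± 1.03, 40.2% ± 9.84 and 46.8% ± 11.2 in those groups, close to the marker sum in each. Itgb2 was at 11.2% ± 6.36, 8.71% ± 2.09, 59.1% ± 5.37 and 59.8% ± 6.92. All 9 macrophage markers were called lower in PLX1X and in PLX3X_CD0, 2 in PLX3X_CD30 and 4 in IR-BMT. Over all genes tested, 8.12%, 9.53%, 1.84% and 15.4% were called lower in PLX1X, PLX3X_CD0, PLX3X_CD30 and IR-BMT. Of 8 microglia markers, led by P2ry12 and Tmem119, 7 were called lower in each of the 3 PLX groups and 6 in IR-BMT, and their sum was at 14.5%, 14.5%, 41.3% and 46.7% of NT. Another list, 6 genes best known from macrophages of bone marrow origin (Ms4a7, Lyz2, Ccr2, Clec12a, F13a1 and Apobec3), had a sum at 28.8% ± 2.99 of NT in PLX1X, 28.8% ± 6.09 in PLX3X_CD0, 126% ± 52.8 in PLX3X_CD30 and 90.1% ± 4.34 in IR-BMT. The PLX3X_CD30 mean rests on replicate 3 at 187%, against 98.2% and 92.9% in the other libraries of that group. Of these 6 genes 3 were called lower in PLX1X, 3 in PLX3X_CD0, none in PLX3X_CD30 and 1 in IR-BMT. The part of any of these cells in the fall of the integrins was not tested.

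Neutrophils also carry Itgam, and lymphocytes carry Itgal and Itga4. The summed CPM of 5 neutrophil markers lay between 0.252 and 1.64 in every library, with Ly6g at 0 in all libraries of 4 groups, and none of the 2 that could be tested was called against NT. Of 8 lymphocyte markers 3 could be tested and none was called, and Ms4a1 was at 0 in every library. The summed CPM of the 8 averaged 34.4 in NT and lay between 18.0 and 44.7 in every library. As a percent of the NT mean it was 106% ± 13.1 in PLX1X and 90.5% ± 34.1 in PLX3X_CD0. In PLX3X_CD30 it was 95.6% ± 14.2, and in IR-BMT it was lowest at 64.1% ± 14.9.

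Itgal, the alpha chain of LFA-1, was the scarcest member in NT and did not follow its beta chain. It stood at 0.667, 0.754 and 0.689 CPM in PLX1X libraries and at 0.588, 1.18 and 1.05 CPM in PLX3X_CD0 libraries. It stood at 1.36, 1.12 and 1.18 CPM in PLX3X_CD30 libraries, at 1.20, 0.669 and 1.02 CPM in IR-BMT libraries, and at 0.429, 0.594 and 0.829 CPM in NT libraries. The groups overlapped except for PLX3X_CD30, whose 3 libraries were above all NT libraries. That difference of 0.93 ± 0.32 log2 units did not pass (adjusted p = 0.0901 in edgeR), and the others were 0.13 ± 0.33 in PLX1X, 0.55 ± 0.32 in PLX3X_CD0 and 0.58 ± 0.32 in IR-BMT, with adjusted p-values of 0.824, 0.238 and 0.191. These values rest on 9 to 61 counts per library. In PLX3X_CD30 the unadjusted p was 0.00915, and the adjusted p ran from 0.0524 to 0.217 over 12 other settings. The 95% interval in PLX1X (log2 -0.506 to 0.770) leaves out a fall as large as that of Itgb2.

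Itga4, the alpha chain of the Vcam1 receptor, went against Itgam and Itgb2 and was higher than in NT in all 4 treated groups. It stood at 5.17, 5.83 and 4.43 CPM in PLX1X libraries and at 6.87, 7.34 and 6.33 CPM in PLX3X_CD0 libraries. It stood at 5.04, 5.27 and 5.29 CPM in PLX3X_CD30 libraries, at 4.16, 5.04 and 4.36 CPM in IR-BMT libraries, and at 2.43, 3.44 and 2.97 CPM in NT libraries. Every treated library was above every NT library. The rise was 1.73-fold in PLX1X (log2 fold change 0.79 ± 0.15 SE, adjusted p = 0.00129, edgeR), 2.30-fold in PLX3X_CD0 (1.20 ± 0.15, adjusted p = 1.39e-05, edgeR), 1.75-fold in PLX3X_CD30 (0.80 ± 0.15, adjusted p = 0.0041, edgeR) and 1.52-fold in IR-BMT (0.60 ± 0.15, adjusted p = 0.00567, edgeR). In PLX3X_CD30 the call was lost when only the 6 libraries compared were fitted (adjusted p = 0.0556).

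The gene that overlaps Itga4, Cerkl, averaged 1.38 ± 0.371 CPM in NT, and its log2 fold changes over NT of -0.60, 0.18, 0.11 and 0.06 in PLX1X, PLX3X_CD0, PLX3X_CD30 and IR-BMT were not called. A summed list of 6 neuron markers stood at 118% ± 5.39, 124% ± 5.31, 124% ± 4.71 and 129% ± 6.05 of the NT mean in those groups, with 3, 3, 2 and 4 of its genes called higher. Over all genes tested, 9.97%, 12.2%, 4.74% and 15.1% were called higher in those groups. The part of the neuron list in the rise of Itga4 was not tested.

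**Figure D3:**
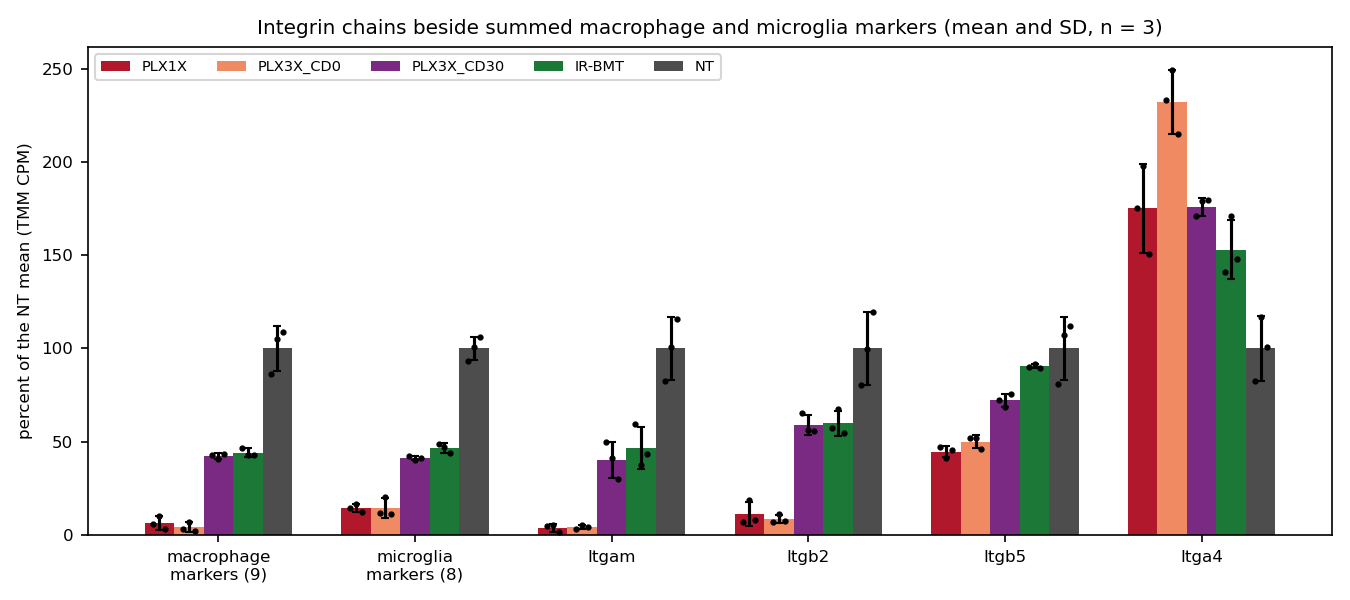
Level as a percent of the NT mean (y axis, linear from 0; bars are means, whiskers SD, points the 3 libraries) of 2 summed marker lists and 4 chains. Itgam stays near the macrophage sum in each group, Itgb5 is at 44.7% to 90.5% in treated groups, and Itga4 is at 153% to 232%.

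Because a ratio of 2 genes within a library does not depend on the scaling between libraries, Itga4 and Itgal were also set against Itgam. The Itga4 count was 19.9, 20.2 and 60.0 times the Itgam count in PLX1X libraries, and 42.4, 27.0 and 28.2 times in PLX3X_CD0 libraries. It was 1.91, 2.40 and 3.32 times the Itgam count in PLX3X_CD30 libraries, 1.32, 2.51 and 1.89 times in IR-BMT libraries, and 0.554, 0.641 and 0.479 times in NT libraries. NT brains were thus the only group with more Itgam than Itga4 counts. For the log2 ratios here and below, 0.5 was added to each count. The mean log2 ratio exceeded that of NT (-0.85 ± 0.21) by 5.60 in PLX1X, 5.78 in PLX3X_CD0, 2.15 in PLX3X_CD30 and 1.73 in IR-BMT, with no overlap and an exact two-sided permutation p of 0.1 each time, the smallest that 3 libraries against 3 allow.

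The ratio of Itgal to Itgam behaved alike, but both ratios share the Itgam count and are not independent of each other. Since Itgal was called in no group against NT, this ratio largely restates the lower Itgam level and is no separate support. The mean log2 ratio of Itgal to Itgam was 1.90 ± 0.97 in PLX1X, 2.02 ± 0.20 in PLX3X_CD0, -0.78 ± 0.30 in PLX3X_CD30, -1.37 ± 0.20 in IR-BMT and -3.11 ± 0.20 in NT (SD, n = 3 each). The differences from NT were 5.01, 5.13, 2.33 and 1.74 in that order of groups, without overlap and at the exact permutation p of 0.1 that the design allows at best. In both ratios PLX1X and PLX3X_CD0 were highest and NT lowest. All of these ratios rest on few Itgam counts in PLX1X and PLX3X_CD0.

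**Figure D4:**
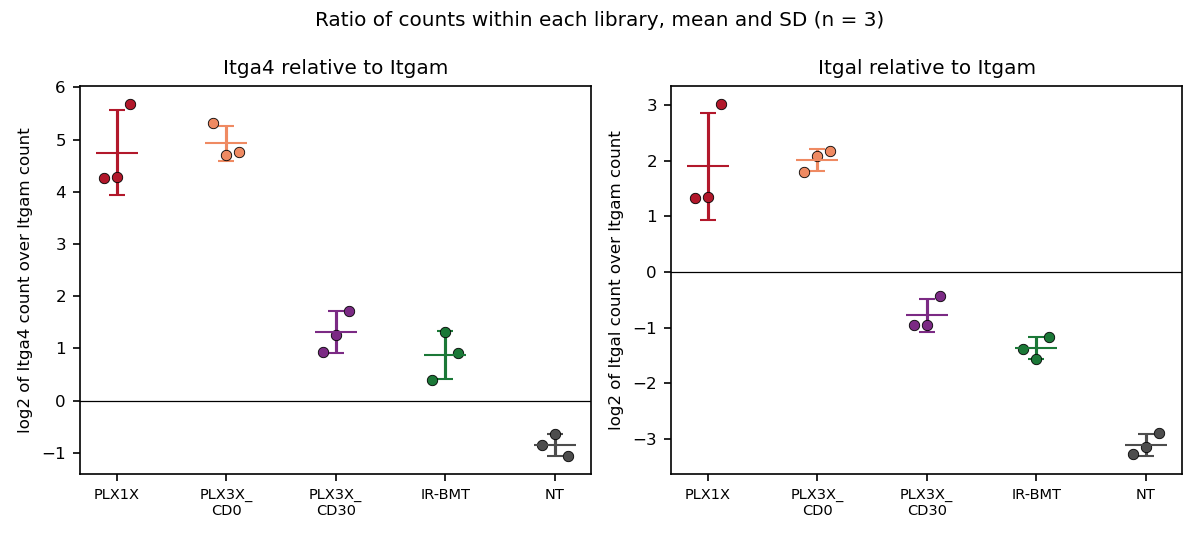
Log2 ratio of the Itga4 count (left) and of the Itgal count (right) to the Itgam count within each library (y axis; points are libraries, bars mean and SD, n = 3). The treated groups all lie above NT, and PLX1X and PLX3X_CD0 lie above PLX3X_CD30 and IR-BMT in both panels.

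Itgb5, a partner of Itgav, was the broadly expressed chain with the largest differences from NT in the PLX groups. It stood at 45.7, 40.3 and 44.4 CPM in PLX1X libraries and at 50.4, 50.7 and 44.7 CPM in PLX3X_CD0 libraries. It stood at 70.3, 67.0 and 73.7 CPM in PLX3X_CD30 libraries, at 87.6, 89.4 and 87.3 CPM in IR-BMT libraries, and at 78.7, 104 and 109 CPM in NT libraries. The 3 PLX groups lay below every NT library, while the IR-BMT libraries lay inside the NT range. Itgb5 was 2.25-fold lower in PLX1X (log2 fold change -1.17 ± 0.09 SE, adjusted p = 2.87e-07, edgeR), 2.01-fold lower in PLX3X_CD0 (-1.01 ± 0.09, adjusted p = 7.64e-07, edgeR) and 1.39-fold lower in PLX3X_CD30 (-0.47 ± 0.09, adjusted p = 0.0054, edgeR). The call in PLX3X_CD30 was lost when only the 6 libraries compared were fitted (adjusted p = 0.0592).

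In IR-BMT the log2 fold change of Itgb5 was -0.15 ± 0.09 and did not pass (adjusted p = 0.241, edgeR). It became -0.29 with an adjusted p of 0.00258 without NT replicate 1, the lowest NT library, and -0.34 with an adjusted p of 0.0018 after an offset for GC content and transcript length. Even in PLX1X, with the macrophage sum at 6.49% of NT, Itgb5 kept 44.7% ± 2.92 of its NT level, against 3.89% for Itgam.

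Itgb1, the common beta chain, had log2 fold changes over NT between -0.31 in IR-BMT and -0.09 in PLX1X. It averaged 68.2 ± 1.53 CPM in PLX1X, 63.0 ± 0.451 in PLX3X_CD0, 67.4 ± 2.05 in PLX3X_CD30, 58.6 ± 2.44 in IR-BMT and 72.5 ± 2.99 in NT. The PLX3X_CD0 libraries (63.4, 62.5 and 63.1 CPM) and the IR-BMT libraries (61.3, 58.1 and 56.5 CPM) lay below the NT libraries (73.2, 75.1 and 69.3 CPM), whereas the other groups overlapped NT. Itgb1 was lower in IR-BMT by a log2 fold change of -0.31 ± 0.05 (adjusted p = 0.000183, edgeR) and in PLX3X_CD0 by -0.20 ± 0.05 (adjusted p = 0.00776, edgeR). The second call was lost without a filter on low counts (0.0923) and with only the 6 libraries compared (0.0529). In PLX1X and PLX3X_CD30 the log2 fold changes were -0.09 and -0.11, with adjusted p-values of 0.259 and 0.243 in edgeR.

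Itga6, the laminin receptor chain of vessels and glia, was lower in 3 treated groups. It averaged 19.4 ± 0.751 CPM in PLX1X, 18.1 ± 1.61 in PLX3X_CD0, 21.9 ± 2.22 in PLX3X_CD30, 17.0 ± 0.557 in IR-BMT and 26.1 ± 1.49 in NT. No treated library, the highest at 23.2 CPM, reached the lowest NT library at 24.4 CPM. The log2 fold change was -0.44 ± 0.09 in PLX1X (adjusted p = 0.00149, edgeR), -0.53 ± 0.09 in PLX3X_CD0 (adjusted p = 0.000177, edgeR) and -0.63 ± 0.09 in IR-BMT (adjusted p = 2.88e-05, edgeR). In PLX3X_CD30 it was -0.26 ± 0.09 with an adjusted p of 0.0748 in edgeR, and DESeq2 called it at 0.0456. The summed level of 6 endothelial markers was 99.6% ± 7.28 of NT in PLX1X, 109% ± 4.02 in PLX3X_CD0, 111% ± 3.37 in PLX3X_CD30 and 87.0% ± 4.60 in IR-BMT. The summed level of 6 oligodendrocyte markers was 83.1% ± 1.18, 72.1% ± 3.13, 81.4% ± 1.86 and 67.8% ± 3.40 in those groups, with 2, 3, 1 and 5 of its genes called lower. Over all genes tested, 8.12%, 9.53%, 1.84% and 15.4% were called lower in those groups. The part of either cell type in the values of Itga6 was not tested.

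Itgav, the partner of Itgb5, differed from NT past the threshold in a single treated group, PLX3X_CD0. It averaged 104 ± 5.08 CPM in PLX1X, 119 ± 5.80 in PLX3X_CD0, 101 ± 1.92 in PLX3X_CD30, 101 ± 4.72 in IR-BMT and 102 ± 5.62 in NT. Its PLX3X_CD0 libraries (114, 125 and 119 CPM) were above those of NT (95.5, 104 and 106 CPM) by a log2 fold change of 0.23 ± 0.06 (adjusted p = 0.00828, edgeR). With only those 6 libraries fitted the adjusted p was 0.0614. In PLX1X the 95% interval of the log2 fold change, -0.0846 to 0.142, leaves out a change of the size seen for Itgb5.

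Itga9, which binds tenascin-C and osteopontin, was called in no comparison with NT. It averaged 10.5 ± 1.25 CPM in PLX1X, 9.85 ± 2.07 in PLX3X_CD0, 9.51 ± 2.27 in PLX3X_CD30, 8.89 ± 2.15 in IR-BMT and 12.5 ± 1.04 in NT. The IR-BMT libraries (9.21, 6.60 and 10.9 CPM) lay below the NT libraries (13.2, 13.1 and 11.3 CPM), yet the log2 fold change of -0.49 ± 0.20 had an adjusted p of 0.0716 in edgeR. DESeq2 called it at 0.0417, and so did edgeR without IR-BMT replicate 3 (0.0302). It was also called in edgeR without a filter on low counts (0.00254) and with the length and GC offset (0.0494). The call was absent in 8 of 12 other settings.

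By class, the 4 leukocyte chains had a median log2 fold change over NT of -1.52 in PLX1X, -1.49 in PLX3X_CD0, 0.02 in PLX3X_CD30 and -0.08 in IR-BMT. The 5 broadly expressed chains had medians of -0.25, -0.34, -0.26 and -0.31 in the same groups, and all genes tested had medians of -0.04, -0.03, -0.02 and -0.05. The leukocyte medians hide a split, since Itgam and Itgb2 had negative values and Itgal and Itga4 positive values in every treated group. The class name therefore did not set the direction.

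Levels of different chains were compared per kilobase of the longest transcript. For Itgam, reads in exons shared with Gm49368 may be missing, so its place may be too low. In NT brains Itgb5 was highest at 29.7 ± 4.98 CPM per kilobase, followed by Itgb1 at 19.0, Itgav at 14.4, Itga6 at 6.06, Itgb2 at 2.83, Itga9 at 1.78, Itgam at 1.14, Itga4 at 0.302 and Itgal at 0.118. No pair of neighbours in this order overlapped between libraries. In PLX1X brains Itgb1 led at 17.9 CPM per kilobase, Itgb5, at 13.2, came after Itgav, and Itgam was last at 0.0442, below Itgal at 0.135. In that group Itga4 (0.527) and Itgb2 (0.315) overlapped.

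In PLX3X_CD0 Itgam was again last, at 0.0468 CPM per kilobase, and Itgav (16.9) and Itgb1 (16.5) overlapped at the top, as did Itgb2 (0.246) and Itgal (0.180). In PLX3X_CD30 and IR-BMT the order began with Itgb5 at 21.4 and 26.8 CPM per kilobase, as in NT, and ended with Itgal at 0.234 and 0.184. In those groups Itgam, at 0.457 and 0.532, was beside Itga4, at 0.532 and 0.463, and their libraries overlapped, whereas in NT Itgam stood above Itga4. Itgb2 (1.67 and 1.69) overlapped Itga9 (1.36 and 1.27) in both, and Itgb1 (15.4) overlapped Itgav (14.4) in IR-BMT.

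PLX3X_CD0 was compared with PLX1X, and none of the 9 chains was called, where 2.46% of all genes were. Before adjustment, 3 chains had a p under 0.05 in edgeR: Itga4 at 0.0105, Itgav at 0.00297 and Itgb1 at 0.0377. Itga4 was higher by a log2 difference of 0.41 ± 0.14 (adjusted p = 0.155), with no overlap between the 3 PLX3X_CD0 and the 3 PLX1X libraries. The Itgam difference of 0.05 had a 95% interval from -0.766 to 0.865, so that these low counts allow a difference of either sign. DESeq2 called none of the 9 either.

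PLX3X_CD30 was compared with PLX3X_CD0, and 4 chains were called, 3 higher and 1 lower, against 3.8% of all genes (1.87% higher and 1.93% lower). With the offset for GC content and transcript length the calls over all genes were 414 higher and 283 lower in place of 407 and 421. Itgam was 9.62-fold higher (log2 fold change 3.27 ± 0.34 SE, adjusted p = 1.11e-05, edgeR), at 2.14 ± 0.523 CPM in PLX3X_CD30 and 0.219 ± 0.0549 CPM in PLX3X_CD0. Itgb2 was 6.76-fold higher (2.76 ± 0.28, adjusted p = 1.31e-05, edgeR), and Itgb5 was 1.45-fold higher (0.53 ± 0.09, adjusted p = 0.00242, edgeR). These are the chains that were lowest relative to NT in PLX3X_CD0, but both comparisons use the same PLX3X_CD0 libraries and are not independent. Itgav was lower by -0.23 ± 0.06 (adjusted p = 0.0267, edgeR), a call that was lost without PLX3X_CD0 replicate 2 (0.126) or 3 (0.0825), without PLX3X_CD30 replicate 1 (0.0883), 2 (0.0816) or 3 (0.0995), and, with that offset, at an adjusted p of 0.124. Itga4 had a log2 fold change of -0.40 ± 0.15 and did not pass (adjusted p = 0.165, edgeR), although the groups did not overlap. The macrophage marker sum was 42.3% of NT in PLX3X_CD30 and 4.25% in PLX3X_CD0.

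IR-BMT was compared with PLX3X_CD0, and 5 chains were called, 3 higher and 2 lower, against 21.5% of all genes (10.1% higher and 11.4% lower). Itgam was 11.2-fold higher (log2 fold change 3.48 ± 0.34 SE, adjusted p = 2.00e-06, edgeR), Itgb2 was 6.85-fold higher (2.78 ± 0.28, adjusted p = 5.15e-06, edgeR) and Itgb5 was 1.81-fold higher (0.86 ± 0.09, adjusted p = 1.06e-05, edgeR). Itga4 was lower by -0.60 ± 0.15 (adjusted p = 0.00647, edgeR) and Itgav by -0.23 ± 0.06 (adjusted p = 0.00674, edgeR). The last 2 calls were lost after the offset for GC content and transcript length, which gave -0.33 with an adjusted p of 0.169 for Itga4 and -0.03 with an adjusted p of 0.826 for Itgav.

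IR-BMT was also compared with PLX3X_CD30, and 3 chains were called, against 16.5% of all genes. The myeloid pair did not differ beyond its spread: Itgam had a log2 fold change of 0.21 ± 0.27 (adjusted p = 0.66, edgeR; 95% interval -0.322 to 0.752) and Itgb2 of 0.02 ± 0.25 (adjusted p = 0.971, edgeR; 95% interval -0.468 to 0.504). Itgb5 was higher by 0.33 ± 0.09 (adjusted p = 0.0213, edgeR), at 88.1 ± 1.17 CPM in IR-BMT and 70.3 ± 3.36 CPM in PLX3X_CD30. Itga6 was lower by -0.36 ± 0.09 (adjusted p = 0.00728, edgeR), and Itgb1 by -0.20 ± 0.05 (adjusted p = 0.0119, edgeR). Of these calls only that of Itga6 held in each of 12 other settings, with adjusted p-values up to 0.0484. With the offset for length and GC content Itgb5 was at 0.16 (adjusted p = 0.204) and Itgb1 at -0.05 (adjusted p = 0.632), and each of these calls was also lost without PLX3X_CD30 replicate 1, IR-BMT replicate 2 or IR-BMT replicate 3. That of Itgb5 was lost too without PLX3X_CD30 replicate 2 (0.0916).

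The genes most like each chain were taken as those with the highest Pearson correlation of log2 CPM over all 15 libraries, a description in which the libraries of a group share their treatment. Itgam was most like Fcgr3 (r = 0.991), Csf3r (0.987) and P2ry12 (0.986), which encode an Fc receptor, a growth factor receptor and the purinergic receptor of microglia. Itgb2 was most like Pld4 (0.989), Cx3cr1 (0.988) and Adgre1 (0.986), where Cx3cr1 is the fractalkine receptor and Adgre1 the F4/80 antigen. Itgb5 was most like Unc93b1 (0.972), which carries endosomal Toll-like receptors, Rnase4 (0.965) and Stab1 (0.965), a scavenger receptor.

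Itga4 was most like Exoc2 (r = 0.946), Dcaf8 (0.938) and Snx19 (0.932), all abundant genes, and Exoc2 averaged 89.1 CPM in PLX1X, 95.4 in PLX3X_CD0, 83.0 in PLX3X_CD30, 80.6 in IR-BMT and 65.6 in NT. Itgb1 was most like Bhlhe41 (0.963), Snx5 (0.959) and Ash1l (0.949). Itga6 was most like Celf2 (0.936), Tlr3 (0.930) and Pon2 (0.924), and Itgav like Dido1 (0.923), Zfp369 (0.897) and the dendritic microtubule gene Map2 (0.896). Itga9 was most like Ptpn7 (0.895), another integrin chain, Itga5 (0.883), and Rxrg (0.882). Itgal had the weakest partners, led by Eml4 (0.774). Among the members themselves, Itgam correlated with Itgb2 at 0.973 and with Itgb5 at 0.943, with Itga4 at -0.770 and with Itgal at 0.017.

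Of 17 further integrin chains 14 passed the filter on low counts, with medians of log2 fold change over NT of -0.14 in PLX1X, 0.00 in PLX3X_CD0, 0.03 in PLX3X_CD30 and -0.09 in IR-BMT. The calls below stand beside 18.1%, 21.7%, 6.57% and 30.6% of all genes tested that were called in those groups. Itga3, a laminin receptor chain, was higher than in NT in PLX1X (log2 fold change 0.25), PLX3X_CD0 (0.35) and IR-BMT (0.37). Itgae, which pairs with Itgb7 on lymphocytes of epithelia, was lower in PLX1X (-1.85, adjusted p = 0.0278, edgeR) and IR-BMT (-2.06, adjusted p = 0.0129, edgeR), on at most 30 counts in any library. Its log2 fold change of -1.85 in PLX3X_CD30 equalled that in PLX1X and did not pass (adjusted p = 0.0623, edgeR), and 5 of 12 other settings did not call it in PLX1X. In PLX3X_CD0 the other call was Itga11 (0.78), a collagen receptor chain, so that 2 chains were higher and none lower. Its NT libraries were spread widely, at 1.53, 4.48 and 2.45 CPM, against 5.21, 4.48 and 5.15 CPM in PLX3X_CD0 libraries. In PLX3X_CD30 the single call was Itgb8 (-0.21), a partner of Itgav that releases active TGF-beta. In IR-BMT 2 chains were higher, Itga3 and the platelet chain Itga2b (0.55), and 2 lower, Itgae and the collagen receptor chain Itga1 (-0.59). Itgax (CD11c), which also pairs with Itgb2, had too few counts to test, at most 14 in a library.

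Proteins inside the cell switch integrins on, and several of them are best known from leukocytes. Of 9 such genes, 4 were lower and 2 higher in PLX1X than in NT. The 4 were Fermt3 (kindlin-3; log2 fold change -2.31), Apbb1ip (RIAM; -1.94), Fyb (ADAP; -3.41) and Parvg (-1.29). The same 4 were called lower in PLX3X_CD0, at -2.63, -2.14, -3.45 and -1.78, with Ptk2b (PYK2) higher at 0.44. In PLX3X_CD30, 3 were lower (Apbb1ip -1.35, Fermt3 -1.11 and Fyb -1.07) and none higher. In IR-BMT, 4 were lower, among them Apbb1ip (-1.31), Fyb (-1.58) and Fermt3 (-0.60), and 2 were higher, among them Ptk2b (0.33). The list mixes genes of unlike level, and not all fell with the macrophage markers, whose sum was 6.49% of NT in PLX1X. Ptk2b averaged 537 ± 80.0 CPM in NT and 663 ± 30.5 in PLX1X, and Rasgrp2 71.3 ± 3.39 and 77.0 ± 4.32. The median log2 fold change of the 9 was -0.20 in PLX1X, -0.18 in PLX3X_CD0, -0.19 in PLX3X_CD30 and -0.33 in IR-BMT. Over all genes tested, 18.1%, 21.7%, 6.57% and 30.6% were called in those groups.

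Fermt3 binds the tail of Itgb2 and other beta chains. It averaged 1.82 ± 0.359 CPM in PLX1X, 1.46 ± 0.621 in PLX3X_CD0, 4.21 ± 0.608 in PLX3X_CD30, 5.99 ± 0.493 in IR-BMT and 9.07 ± 0.466 in NT. Against PLX3X_CD0, 4 of the 9 genes were higher in PLX3X_CD30 and none lower (Fermt3 1.52, Fyb 2.38, Parvg 1.21 and Apbb1ip 0.79), and the same 4 were higher in IR-BMT (2.03, 1.87, 1.45 and 0.83). Over all genes tested, 1.87% were called higher in PLX3X_CD30 and 10.1% in IR-BMT. None of the 9 was called between IR-BMT and PLX3X_CD30, where 16.5% of all genes were.

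Other adaptors are shared by most cells. Of 19 such genes 18 were tested; Ilk had too few counts. Against NT, 1 was higher and 2 lower in PLX1X (Tln1 -0.45 and Pxn -0.37, which encode talin 1 and paxillin, and Ptk2 0.21, the focal adhesion kinase). In PLX3X_CD0, 2 were higher and 3 lower, led by Fermt2 (kindlin-2) at -0.32, and in PLX3X_CD30, 1 was higher (Ptk2 0.29) and 1 lower (Tln1 -0.26). In IR-BMT 5 were higher and 3 lower, led by Zyx (zyxin; 0.59), Rap1a (-0.55), Rsu1 (-0.45) and Ptk2 (0.37). Ptk2 was called higher in all 4 treated groups, and the medians of the list were -0.05, -0.10, -0.05 and 0.03. Over all genes tested, 18.1%, 21.7%, 6.57% and 30.6% were called in PLX1X, PLX3X_CD0, PLX3X_CD30 and IR-BMT.

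Among 16 integrin ligands, F11r (JAM-A, a ligand of the Itgal and Itgb2 pair) was called lower in every treated group, with log2 fold changes of -1.50 in PLX1X, -0.98 in PLX3X_CD0, -0.73 in PLX3X_CD30 and -0.85 in IR-BMT. It averaged 4.26 ± 0.657 CPM in PLX1X, 6.12 ± 1.74 in PLX3X_CD0, 7.26 ± 0.0732 in PLX3X_CD30, 6.71 ± 1.22 in IR-BMT and 12.0 ± 1.26 in NT. Vcam1, the ligand of Itga4, was lower in PLX3X_CD0 (-0.40) and IR-BMT (-0.52) and was not called in PLX1X or PLX3X_CD30. It averaged 31.6 ± 0.643 CPM in PLX1X, 28.5 ± 2.15 in PLX3X_CD30 and 31.9 ± 2.28 in NT, whereas Itga4 was called higher in all 4 treated groups. Icam5, the ICAM of forebrain neurons, was higher in PLX3X_CD0 (0.33) and IR-BMT (0.65). Thbs1 (thrombospondin) was higher in PLX1X (0.63), PLX3X_CD0 (0.65) and IR-BMT (1.16), and Icam1 was lower in PLX1X (-0.68). In all, 1 ligand was higher and 2 lower in PLX1X, 2 and 3 in PLX3X_CD0, none and 1 in PLX3X_CD30, and 3 and 4 in IR-BMT, with medians of -0.17, -0.17, -0.13 and 0.00. Over all genes tested, 18.1%, 21.7%, 6.57% and 30.6% were called in those groups.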

How the data were processed

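Per the labels' protocols, RNA came from frozen forebrain by way of an RNeasy Lipid Tissue Mini kit, a SMARTer Ultra Low kit turned it into cDNA, and a NovaSeq-6000 read it in pairs. The authors deposited raw counts per gene and the same values as CPM, which equal each count over its library total to within 4.99e-07. DRAGEN, DESeq2 and the build mm10 are named per the submitters' processing notes; their versions and roles, any strand setting and the annotation were not given in the sources used here. Of 55774 rows, 287 repeated an identifier with identical counts and were removed, and 55141 identifiers were found in GENCODE release 21. Among counts of 1 to 4, 70.6% to 74.7% were even, so a count may be worth less than 1 fragment; tests rest on the spread between libraries, and counting error alone would understate it.

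Groups were read from library names and replicate numbers from titles. Counts were fitted with edgeR 4.0.16 (R 4.3.3) after filterByExpr by group, with TMM factors (1 mean per group over all 15 libraries, robust quasi-likelihood F-tests, biological coefficient of variation 12.1%) for 8 comparisons. The SE of a log2 fold change is its size divided by the square root of F, and 95% intervals are normal ones built from it. Ratios used an exact permutation test. Other settings tried were RLE size factors, DESeq2 1.42.0, no filter, a fit of the 2 groups alone, a replicate block, each library left out in turn, 1 in place of 0.5 added to counts in ratios and, chosen after seeing the data, a loess offset on length and GC content of the longest transcript (known for 99.9% of genes tested).

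All 9 members are named, with up to 4 called genes of smallest adjusted p per further list and comparison, and the 3 most correlated genes of each member (log2 of CPM + 0.5, average log2 CPM of at least 1). Members, lists and tests were chosen with earlier results of these data known. A RefSeq promoter was found for 6 of the 9, and 3 are printed.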

Additional observations from a re-analysis of the deposited data

How the results depend on the processing

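Counts of calls depended on the fit, over all genes and, in some comparisons, among the 9 chains. With only the 2 groups compared, 2143 genes in place of 3939 were called in PLX1X against NT, 2601 in place of 4732 in PLX3X_CD0 and 359 in place of 1432 in PLX3X_CD30. Leaving out 1 library gave 608 to 1714 genes in PLX3X_CD30 against NT, 150 to 289 (536 with all) in PLX3X_CD0 against PLX1X, 384 to 563 (828) in PLX3X_CD30 against PLX3X_CD0, 3029 to 4441 (4687) in IR-BMT against PLX3X_CD0 and 1975 to 3526 (3597) in IR-BMT against PLX3X_CD30. Without a filter on low counts 1186 genes were called in PLX3X_CD0 against PLX1X and 1395 in PLX3X_CD30 against PLX3X_CD0, and DESeq2 called 1065 in the first of these. The length and GC offset gave 303 in PLX3X_CD0 against PLX1X, 2037 in IR-BMT against PLX3X_CD0 and 1140 in IR-BMT against PLX3X_CD30. Of the 9 chains, DESeq2 and the offset each called 5 in PLX3X_CD30 against NT in place of 3, adding Itgb2 and Itga6. The offset called 3 in place of 5 in IR-BMT against PLX3X_CD0 and 1 in place of 3 in IR-BMT against PLX3X_CD30, where leaving out 1 library gave 1 to 3. The other member counts stayed within 1.5 times, and over single fold changes 781 values kept direction and side of the threshold, 27 lost the call, 13 gained it and 42 changed sign, none of a called change. The sign changes are listed next, with ranges from leaving out a library. Itgav changed sign in PLX1X against NT (0.0 with the offset, range 0.0 to 0.07) and in PLX3X_CD30 against NT (range -0.04 to 0.02). It did so in IR-BMT against NT (0.0 with RLE and DESeq2, 0.13 with the offset, range -0.06 to 0.02). In IR-BMT against PLX3X_CD30, Itgav was at 0.01 with RLE and DESeq2, 0.0 without a filter and 0.14 with the offset (range -0.03 to 0.03). Itgal changed sign in PLX1X against NT (range -0.01 to 0.43) and in IR-BMT against PLX3X_CD0 (-0.03 with the offset, range -0.21 to 0.24). In PLX3X_CD0 against PLX1X, Itgam (range -0.31 to 0.31), Itgb2 (range -0.61 to 0.22) and Itga9 (range -0.27 to 0.03) did so. Itga9 also did in PLX3X_CD30 against PLX3X_CD0 (0.05 with the offset, range -0.24 to 0.13). The same held for Itga9 in IR-BMT against PLX3X_CD0 (range -0.31 to 0.03) and against PLX3X_CD30 (range -0.26 to 0.1). Itgb1 changed sign in IR-BMT against PLX3X_CD0 (0.05 with the offset). Itgb2 did in IR-BMT against PLX3X_CD30 (0.0 with the block, -0.05 with the offset, range -0.08 to 0.1). Not all were near 0: Itgb2 in PLX3X_CD0 against PLX1X went from -0.35 to 0.22 without PLX1X replicate 2. The cause of these moves was not tested. The titles number the libraries of each group, but in most cases same-numbered libraries did not deviate together (correlations from -0.299 to 0.518). The highest values were for IR-BMT with PLX3X_CD0, at 0.518 for replicate 1 and 0.333 for replicate 2. The best other numbers there reached 0.0791 and -0.121, and the same number was also the best match in some other cases. With the replicate number as a block 5, 7, 3 and 5 members were called in PLX1X, PLX3X_CD0, PLX3X_CD30 and IR-BMT against NT, and no call of a member changed. Itgam rests on 3 to 14 counts per library in PLX1X and PLX3X_CD0, and Itgal on 9 to 61 in all groups.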
